A study of Mus musculus with 2 samples.

Results

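Distal intronic open sites are stretches of accessible chromatin that lie within protein-coding genes, away from transcript starts and outside exons. They were collected from 2 DNase-seq libraries of mouse embryonic liver, using the longer of the 2 peak lists made for each library. A site was a replicate 1 peak that overlapped a replicate 2 peak by at least 1 base, lay more than 1000 bases from every annotated transcript start, lay wholly inside a protein-coding gene and overlapped no annotated exon (GENCODE release M21, mm10). Of the 47198 peaks of replicate 1, 30341 overlapped one of the 36523 peaks of replicate 2. Of these shared peaks 11580 lay beyond 1000 bases from a start, 10366 of which overlapped no exon, and 4478 of which also lay wholly inside a protein-coding gene. The 4478 sites made up 14.8% of the shared peaks. Shared peaks within 1000 bases of a start numbered 18761 (61.8%), distal peaks over an exon 1214 (4.0%) and distal peaks not wholly inside a protein-coding gene 5888 (19.4%). They are called promoter, exonic and intergenic peaks here.

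In DNase-seq the nuclease DNase I cuts accessible DNA, and the fragment ends are sequenced. Both libraries came from liver of embryos at day 13.5, of strain C57BL/6N,129, whose label adds "LCR deletion" and "HET globin mutation". They are biological replicates 1 and 2 of that 1 group, from separate biosamples under 1 donor identifier. No control group was included, so no comparison of conditions could be made and no p-value is given. Every difference described below is between classes of site, between genes or between the 2 libraries. The labels do not spell out LCR or HET, and give neither the extent of the deletion nor the globin gene that was mutated nor a genotype per embryo. The tissue was whole liver, a mixture of cell types, so fewer cells of a type and less signal per cell cannot be told apart. Promoters were open in both libraries for 95 of 102 genes on 5 erythroid lists and for 4 of 18 hepatoblast genes. They were open for 11868 of all 21938 protein-coding genes (54.1%) and for all 12 housekeeping genes. Among the hepatoblast genes, Foxa3, a hepatic transcription factor, had promoter values of 9.41 and 4.33 in replicates 1 and 2. Afp had 1.15 and 0.624, and Alb, which encodes albumin, had no promoter peak in either library.

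Introns hold many of the enhancers that control tissue-specific genes, and at midgestation the liver makes most of the red cells of the embryo. In erythroid cells the transcription factor GATA1 binds GATA motifs, often beside an E-box bound by TAL1 and its partners, and KLF1 binds CACC-type motifs. NFE2 binds motifs shared with AP-1. CTCF, a factor of all cell types, binds a long motif at insulators and chromatin loop anchors. A bound factor can protect its motif from DNase I and leave a footprint, a short stretch with fewer cuts inside an open site.

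The 9 sequences below are the 200 bases around the midpoint of the sites with the best mean rank of value, over both libraries, that held a given motif. The first 5 head the GATA-containing sites of the 5 erythroid gene lists, the next 3 those of the named erythroid genes with a GATA-E-box, KLF or NFE2/AP-1 match, and the last all sites with a CTCF match. They are plus-strand sequence of GRCm38 from RefSeq. Capitals mark matches, on either strand, of GATA (spelled AGATAA or TGATAA), KLF (CCNCNCCC), NFE2/AP-1 (TGANTCA) and CTCF, and both ends of a GATA-E-box (CTG, then 7 to 9 bases, then GATAA); E-box matches alone are left in lower case.
Zfpm1, chr8:122321741-122321940: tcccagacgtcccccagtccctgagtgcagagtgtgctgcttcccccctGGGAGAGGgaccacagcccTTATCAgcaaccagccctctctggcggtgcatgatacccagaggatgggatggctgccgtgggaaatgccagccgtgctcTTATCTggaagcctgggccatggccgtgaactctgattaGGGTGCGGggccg
Rhd, chr4:134869461-134869660: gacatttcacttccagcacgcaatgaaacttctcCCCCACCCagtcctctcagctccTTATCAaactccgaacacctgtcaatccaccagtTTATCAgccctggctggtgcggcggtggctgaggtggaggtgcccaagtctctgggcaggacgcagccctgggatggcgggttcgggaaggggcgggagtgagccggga
Alad, chr4:62516691-62516890: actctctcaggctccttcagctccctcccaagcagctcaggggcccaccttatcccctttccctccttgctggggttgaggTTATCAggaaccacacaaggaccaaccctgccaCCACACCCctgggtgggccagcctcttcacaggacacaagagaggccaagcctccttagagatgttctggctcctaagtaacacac
Bcl2l1, chr2:152789171-152789370: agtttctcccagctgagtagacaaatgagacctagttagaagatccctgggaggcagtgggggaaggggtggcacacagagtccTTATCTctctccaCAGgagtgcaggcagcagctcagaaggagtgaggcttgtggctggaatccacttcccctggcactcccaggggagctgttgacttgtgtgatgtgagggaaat
Trim58, chr11:58643501-58643700: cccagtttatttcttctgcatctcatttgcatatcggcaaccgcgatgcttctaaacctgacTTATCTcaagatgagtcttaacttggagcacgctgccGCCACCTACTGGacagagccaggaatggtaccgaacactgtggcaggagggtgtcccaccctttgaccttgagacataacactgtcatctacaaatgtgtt
Dmtn, chr14:70623951-70624150: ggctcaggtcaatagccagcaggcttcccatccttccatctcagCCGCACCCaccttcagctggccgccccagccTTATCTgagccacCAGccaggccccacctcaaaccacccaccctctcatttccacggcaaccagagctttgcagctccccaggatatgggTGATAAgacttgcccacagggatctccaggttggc
Mxi1, chr19:53314221-53314420: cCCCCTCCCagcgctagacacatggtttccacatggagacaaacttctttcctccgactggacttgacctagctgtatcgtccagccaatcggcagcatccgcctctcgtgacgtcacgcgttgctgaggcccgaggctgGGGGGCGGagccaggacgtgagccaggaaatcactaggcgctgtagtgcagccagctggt
Ikzf1, chr11:11729291-11729490: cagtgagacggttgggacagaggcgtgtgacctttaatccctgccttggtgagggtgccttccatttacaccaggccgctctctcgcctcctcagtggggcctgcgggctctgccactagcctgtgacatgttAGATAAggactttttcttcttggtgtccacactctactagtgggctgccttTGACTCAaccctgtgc
Myo18a, chr11:77793271-77793470: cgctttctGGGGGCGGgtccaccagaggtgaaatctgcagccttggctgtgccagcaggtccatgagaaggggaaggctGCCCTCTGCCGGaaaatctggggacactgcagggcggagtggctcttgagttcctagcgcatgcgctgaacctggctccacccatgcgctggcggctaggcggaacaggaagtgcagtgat

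The Zfpm1 site, in intron 3 and 11738 bases from the nearest start, had values of 11.1 and 5.16 in replicates 1 and 2. It held 2 GATA matches, of which the one at bases 69 to 74 of the window lay in a footprint in both libraries and the one at bases 149 to 154 in neither. Both GATA matches of the Rhd window lay in a replicate 1 footprint, and only the one at bases 92 to 97 also lay in a replicate 2 footprint. In the Alad window the footprints of both libraries covered the KLF match at bases 115 to 122 and not the GATA match at bases 82 to 87. The Trim58 window held a GATA match outside the footprints and a CTCF match at bases 100 to 111 inside a footprint of each library. The Bcl2l1 GATA-E-box lay in a footprint of replicate 1 only, and the Dmtn GATA-E-box in none. In the Mxi1 window both KLF matches lay in replicate 1 footprints and in no replicate 2 footprint. The GATA and the NFE2/AP-1 match of the Ikzf1 window lay outside the footprints of both libraries. The CTCF match of the Myo18a window, at bases 80 to 91, lay in a footprint in both. A match is a description of the letters and not evidence of a bound factor.

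Distal intronic sites were low in signal beside promoter peaks. The value is the signal that the authors deposited for each peak, and a site carries the values of its own replicate 1 peak and of the replicate 2 peak it overlaps, the highest where there are several. The median was 1.36 in replicate 1 (quartiles 0.924 and 2.18) and 1.03 in replicate 2 (0.749 and 1.47), a mean of 1.19 ± 0.233 (SD, n = 2). Exonic peaks had medians of 1.60 and 1.21 and intergenic peaks 1.40 and 1.05. Promoter peaks had 2.94 and 2.25, a mean of 2.60 ± 0.494 (SD, n = 2). The 99th percentile of the intronic sites was 8.30 in replicate 1 and 4.23 in replicate 2, and the highest values were 32.5 and 48.2. In each library the median of the intronic sites was below that of the other 3 classes. Between intronic and intergenic sites, however, it differed by less than the 2 libraries did. The 103 sites within 100 bases of the 1000-base limit, just inside the rule, had medians of 1.47 and 1.08. The 114 peaks within 100 bases on its other side that otherwise passed had 1.47 and 1.10.

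**Figure D1:**
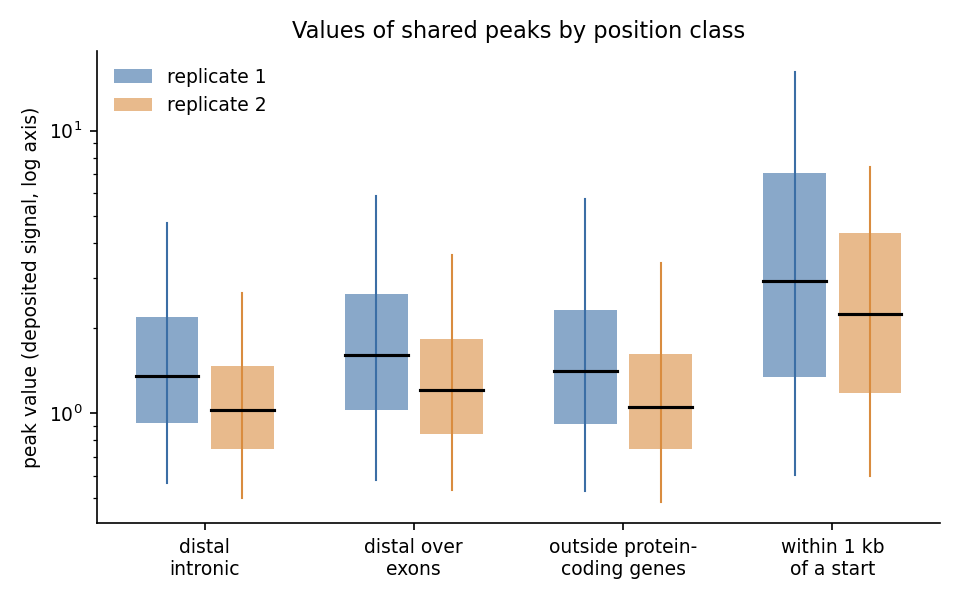
Peak value (the authors' deposited signal, log axis) of shared peaks in 4 position classes, for replicate 1 (blue) and replicate 2 (orange). Boxes span the quartiles, black lines are medians and thin lines run from the 5th to the 95th percentile. The intronic medians, 1.36 and 1.03, lie close to those of intergenic peaks, 1.40 and 1.05, and below those of promoter peaks, 2.94 and 2.25.

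Distal intronic peaks recurred between the libraries less often than promoter peaks. Of the 9061 replicate 1 peaks that met the position part of the rule, 4478 overlapped a replicate 2 peak (49.4%, exact binomial 95% interval 48.4 to 50.5%). Of the 5697 such peaks of replicate 2, 4485 overlapped a replicate 1 peak (78.7%, 77.6 to 79.8%). The mean was 64.1% ± 20.7 (SD, n = 2). Nearly equal counts of shared peaks, 4478 and 4485, were divided by unequal totals, 9061 and 5697. This SD thus follows the totals and does not measure a spread of recurrence between replicates. Promoter peaks overlapped in 77.7% and 85.5%, intergenic peaks in 50.5% and 76.2%, and exonic peaks in 52.6% and 79.1%. Intronic peaks without a partner had a median value of 0.665 in replicate 1 (n = 4583) and 0.582 in replicate 2 (n = 1212), below the medians of the shared sites. The intervals here and below cover counting error only. Of the 4478 sites, 74.9% overlapped the shorter list of replicate 1 and 51.6% that of replicate 2, against 87.2% and 82.8% of promoter peaks. The lowest false discovery rate of the cut rate within a site, as deposited, was under 0.001 at 78.4% of sites in replicate 1 and 57.1% in replicate 2.

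The sites were short and denser in first introns than in later ones. Their median length was 200 bases (quartiles 160 and 220) and their median distance to the nearest start 7375 bases. With 868 Mb of protein-coding gene body open to the rule, the density was 5.16 sites per Mb, against 3.84 intergenic peaks per Mb of 1535 Mb. First introns held 1320 sites (29.5%), or 6.49 per Mb, and later introns 2723 (60.8%), or 4.56 per Mb, counted in 1 transcript per gene. The other 435 sites lay outside the introns of that transcript. Median values were 1.47 and 1.11 in first introns and 1.31 and 0.984 in later ones. By distance, the 1032 sites more than 2000 and up to 5000 bases from a start had medians of 1.47 and 1.12. The 669 beyond 20000 and up to 50000 bases had 1.15 and 0.887, and the 49 beyond 100000 bases had 0.801 and 0.693. Values were thus lower at the greatest distances in both libraries. Among chromosomes the density ran from 2.15 sites per Mb on X (85 sites) to 8.30 on chromosome 11 (384 sites), with 0 sites on Y. Of all sites, 488 (10.9%) had another site within 500 bases and 685 (15.3%) within 1000 bases, while the median distance to the nearest other site was 43710 bases.

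In base composition the sites stood between their surroundings and promoters. The median GC content of the central 200 bases was 53.5%, against 46.5% in windows of the same length 1000 bases to either side within the same gene (7173 of 8956 windows kept) and 65% at promoter peaks. The median ratio of observed to expected CpG was 0.245 at the sites, 0.184 in the flanking windows and 0.784 at promoter peaks. Repeat-masked sequence made up a median of 2% of the central window, and 5.38% of sites were masked over more than 50% of it.

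Most sites held footprints. At least 1 footprint overlapped 89.2% of sites in replicate 1 (exact 95% interval 88.3 to 90.1%) and 76.1% in replicate 2 (74.9 to 77.4%), a mean of 82.7% ± 9.27 (SD, n = 2). Promoter peaks had 85.7% and 80.9%, exonic peaks 90.9% and 79.4%, and intergenic peaks 91.0% and 77.3%. In every class the share was higher in replicate 1. A site held on average 2.23 footprints in replicate 1 and 1.55 in replicate 2, and footprints covered 14.6% and 8.73% of the bases of the sites. Footprints were found in both libraries at 3199 sites (71.4%), in replicate 1 only at 797, in replicate 2 only at 210 and in neither at 272 (6.07%). Recurrence of single footprints was lower than that of footprinted sites. Of the 9943 footprints of replicate 1 within the sites 35.4% overlapped a replicate 2 footprint, and 55.1% of the 6928 of replicate 2 overlapped one of replicate 1. Their median lengths were 10 and 9 bases, with ranges of 7 to 53 and 7 to 67 bases.

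Several motifs, among them GATA, KLF and CTCF, were more frequent at the centres of the sites than in sequence 1000 bases away. A GATA match was present in 31.9% of central windows (1430 sites, exact 95% interval 30.6 to 33.3%), against 17.6% of flanking windows (16.7 to 18.5%), 19.4% of exonic, 21.6% of intergenic and 6.52% of promoter peaks. The GATA-E-box was present in 9.89% of sites (443, 9.03 to 10.8%) and in 1.60% of flanking windows (1.33 to 1.92%), a ratio of 6.17, and in 5.62% of intergenic and 1.53% of promoter peaks. The E-box alone (CAGNTG) was frequent everywhere, at 50.3% of sites and 42.5% of flanking windows. The KLF motif was found at 33.3% of sites, 17.8% of flanking windows and 59.1% of promoter peaks. NFE2/AP-1 matches were found at 7.44%, 5.70% and 2.80% of these. CTCF showed the widest gap to the flanks of the 22 motifs, with 19.1% of sites (856) against 0.223% of flanking windows, and 23.4% of intergenic and 4.46% of promoter peaks.

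The motifs typical of promoters were less frequent at the sites than at promoter peaks, but more frequent than in the flanks. SP (GGGCGG) was found in 14.0% of sites and 55.8% of promoter peaks, NRF1 (GCGCANGCG) in 0.670% and 9.76%, and the CpG-containing ETS motif (CCGGAAG) in 1.81% and 11.6%. In flanking windows they were found at 3.26%, 0.0836% and 0.725%. Their ratios of sites to flanks, 4.28, 8.01 and 2.50, were above those of GATA (1.81) and KLF (1.87). SP and KLF patterns can match the same bases, and a GATA-E-box ends in bases that a GATA match can share. The plain ETS motif (AGGAAGT) had 6.36% of sites against 4.6% of flanking windows. For motifs of hepatocyte factors the sites and the flanks were close. FOXA (TGTTTAC) matches were found in 2.23% of sites and 2.31% of flanking windows, HNF4 (CAAAGTCCA) in 0.223% and 0.265%, and CEBP (TTGCNNAA) in 7.17% and 7.08%, each with overlapping intervals. The same held for RUNX (TGTGGTT) at 5.81% and 5.28% and for STAT5 (TTCNNNGAA) at 5.47% and 5.74%. NFY (CCAAT), TEAD (GGAATG) and OCT (ATGCAAAT) were lower in sites, at 20.1%, 9.02% and 0.603%, than in flanks, at 22.3%, 10.7% and 1.16%. IRF (GAAANTGAA) was at 0.983% and 1.56%, with overlapping intervals. YY1 (AAGATGG) was at 3.73% and 4.57%, GFI1 (AATCACNGC) at 0.313% and 0.432% and MEF2 (CTAAAAATA) at 0.268% and 0.390%, each with overlapping intervals. Sites were richer in GC than flanks, and the part of this in the motif shares was not tested. Among sites and flanks masked over at most 50% of the window, GATA had 32.5% and 18.6%, and CTCF 19.9% and 0.221%. RUNX had 5.71% and 4.09% there, further apart than over all windows.

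**Figure D2:**
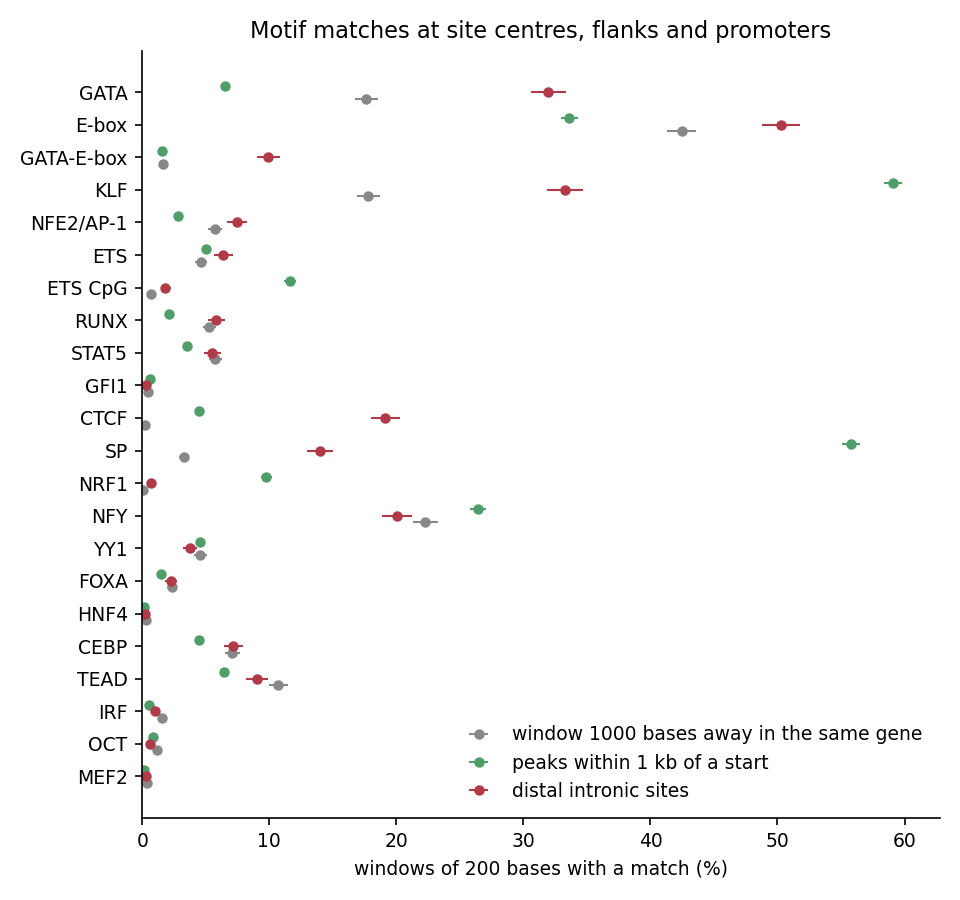
Percentage of 200-base windows with a match of each of 22 motifs, at distal intronic sites (red), in windows 1000 bases away within the same gene (grey) and at promoter peaks (green), with exact binomial 95% intervals. GATA at 31.9% and the GATA-E-box at 9.89% are higher at the sites than in both other sets, CTCF reaches 19.1%, and SP and KLF are highest at promoter peaks.

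Along the DNA the matches concentrated at the site centres. Within 50 bases of the midpoint GATA matches had a density of 2.35 per kb, against 1.01 per kb beyond 750 bases, a ratio of 2.33. CTCF matches had 1.89 against 0.0192 per kb, a ratio of 98.5. The KLF density was 3.36 against 2.00 (1.68), that of NFE2/AP-1 0.507 against 0.311 (1.63) and that of the E-box 4.12 against 2.82 (1.46). ETS had a ratio of 1.34 and RUNX of 1.20. MEF2, a muscle and neuronal factor motif, had a ratio of 0.625. This ratio rests on few matches, 5 and 2 in the 50 bases on either side of the midpoint.

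**Figure D3:**
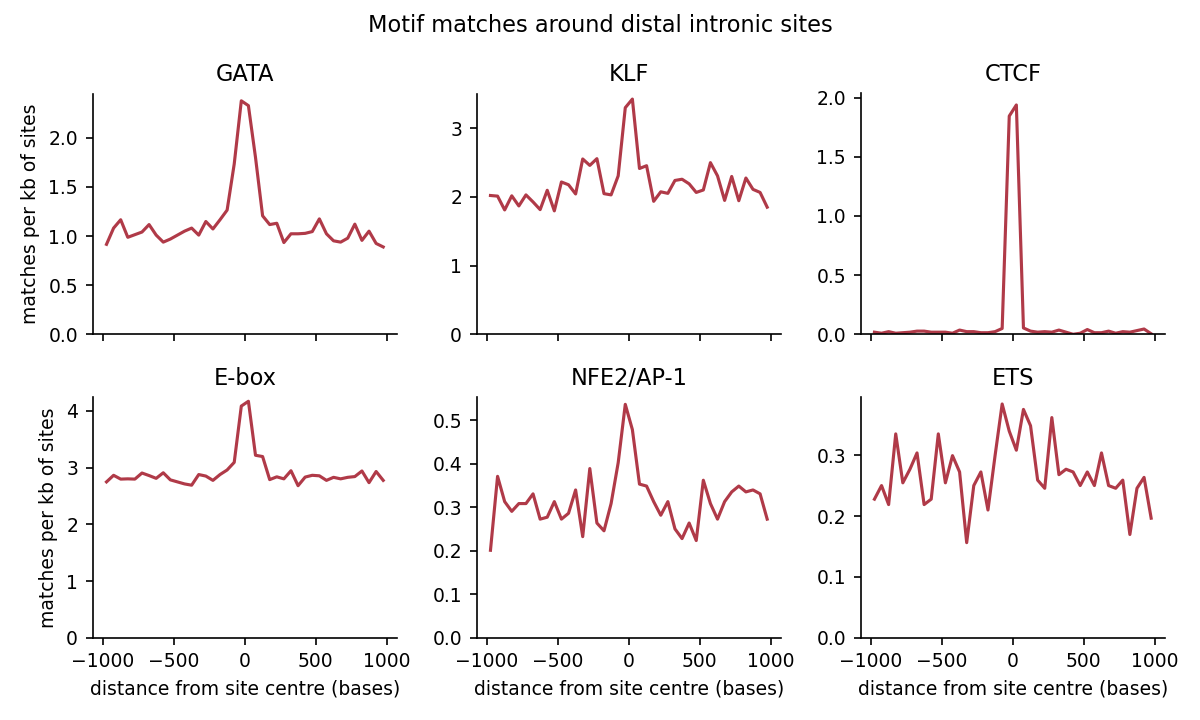
Density of motif matches (per kb of sequence, bins of 50 bases) by distance from the midpoint of the 4478 distal intronic sites, for 6 motifs. The CTCF curve is confined almost wholly to the central bins, GATA, KLF, E-box and NFE2/AP-1 rise there above a level base, and ETS rises least, with a ratio of 1.34.

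The motifs differed in how often their matches lay in footprints. Of 864 CTCF matches, 81.3% had at least 50% of their bases in a footprint in replicate 1 and 60.5% in replicate 2. For the 39 NRF1 matches these shares were 64.1% and 53.8%. The SP shares were 44.0% and 19.8%, and those of the 2564 KLF matches 36.8% and 15.4%. E-box matches had 21.4% and 13.7%, and NFE2/AP-1 matches 18.3% and 13.4%. GATA matches were in footprints at 14.3% and 7.42% (n = 1834), and GATA-E-box matches at 16.4% and 5.68% (n = 475). Footprints covered 14.6% and 8.73% of all bases of the sites, counted per base and not per match. Beside this the GATA shares were slightly lower in both libraries, and the GATA-E-box share was higher only in replicate 1. FOXA matches had 1.12% and 3.37% (n = 89).

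Within the sites, GATA and KLF matches were more frequent where the signal was higher. The 4478 sites were divided into 4 value classes of nearly equal size by mean rank over both libraries, from class 1 (medians 0.727 and 0.624) to class 4 (3.22 and 1.93). From class 1 to class 4, GATA matches went from 27.2% through 30.8% and 33.8% to 36.0%, and GATA-E-box matches from 7.14% through 9.21% and 10.6% to 12.6%. KLF matches went from 27.7% to 41.7% and SP matches from 10.2% to 20.8%. CTCF had no such order, with 18.5%, 19.0%, 21% and 18%, nor had the E-box, with 49.2% and 49.5% at the ends. The median distance to a start went from 10764 bases in class 1 to 5612 in class 4, and the median GC content from 52% to 55.5%. Footprints overlapped 70.8% of class 1 and 99% of class 4 in replicate 1, and 45.9% and 95.8% in replicate 2. These trends are across sites, which share 2 libraries and are not replicates.

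Replicate 2 had the lower value at 83.1% of the sites, and the log2 ratio of replicate 2 over replicate 1 had a median of -0.43 (quartiles -0.75 and -0.12). Exonic, intergenic and promoter peaks had medians of -0.44, -0.41 and -0.47. Across the 4478 sites the values of both libraries had a Spearman correlation of 0.847, against 0.95 across promoter peaks, where values span a wider range. The scaling between libraries is not stated, so the ratio says how unequal the sites were and not which liver was more open. At 530 sites (11.8%) the value was at least 2-fold lower in replicate 2 and at 9 at least 2-fold higher.

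The ratio between libraries differed with the motif. Sites with a GATA match had median values of 1.54 and 1.03 and a median log2 ratio of -0.57 (n = 1430). Sites without one had 1.28 and 1.01, and -0.37 (n = 3048). Sites with a GATA-E-box had 1.69 and 1.08, and -0.69 (n = 443), and those with CTCF 1.33 and 1.05, and -0.35 (n = 856). Sites with a KLF, SP or NFE2/AP-1 match each had -0.52, and sites with KLF and no GATA match -0.46 (n = 978). Sites with no match of GATA, KLF, NFE2/AP-1 or the E-box had -0.31 (n = 918). A lower ratio was thus not particular to GATA. Replicate 1 was further above replicate 2 at sites with a GATA match than at sites without one. The order was seen within every value class: -0.21 with and -0.18 without GATA in class 1, then -0.53 and -0.30, -0.60 and -0.40, and -0.87 and -0.63 in class 4. The same order was seen outside introns, with -0.62 and -0.38 at exonic peaks, -0.54 and -0.38 at intergenic peaks and -0.54 and -0.46 at promoter peaks. Peaks found in 1 library alone also differed, since GATA matches were in 26.7% of the 4583 intronic peaks of replicate 1 without a partner and in 17.2% of the 1212 of replicate 2. With replicate 2 peaks as the base, in place of replicate 1 peaks, the share of sites with a GATA match was 28.2%. Whether the livers or the libraries differed was not tested, and with 1 library per biosample these cannot be told apart.

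**Figure D4:**
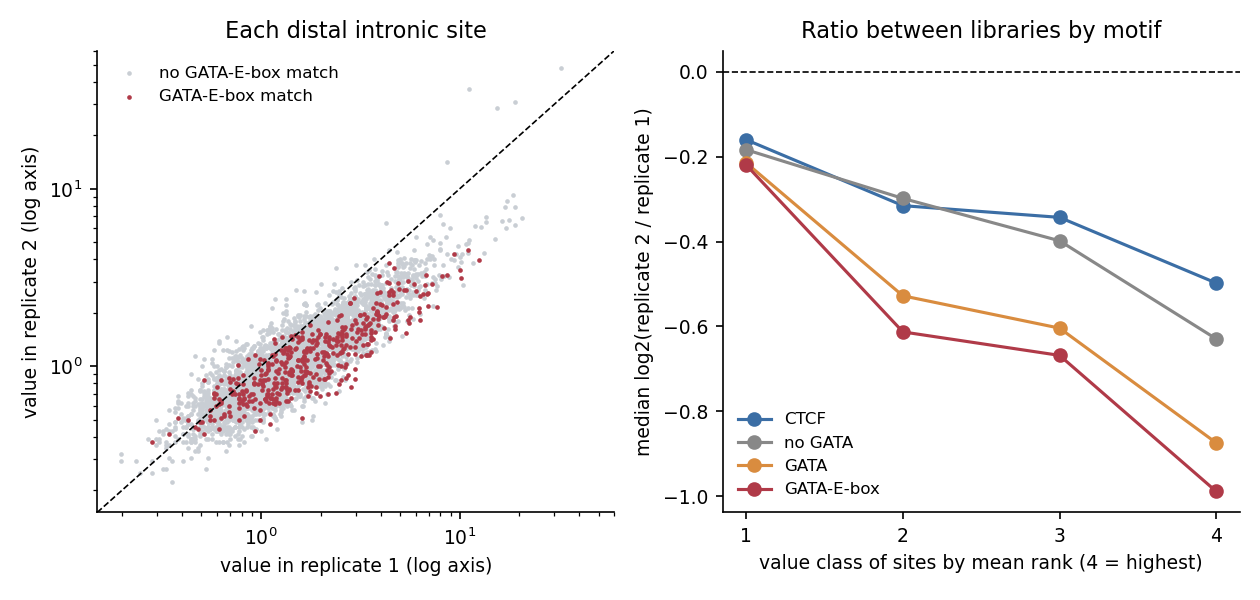
Left, value of each distal intronic site in replicate 1 and replicate 2 (log axes, dashed line at equal values), with the 443 GATA-E-box sites in red. Right, median log2 ratio, replicate 2 over replicate 1, by value class for sites with CTCF, without GATA, with GATA and with a GATA-E-box; in class 4 these medians are -0.50, -0.63, -0.87 and -0.99.

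The sites lay in 2891 of 21938 protein-coding genes (13.2%). Of these host genes 2012 held 1 site, 512 held 2, 273 held 3 or 4, 94 held at least 5 and 9 held at least 10. The hosts were long, with a median of 66.2 kb against 14.1 kb for other protein-coding genes. A gene held a site in 1.26% of genes under 10 kb and in 46.2% of those over 300 kb. Promoters were open in both libraries at 75.1% of hosts and 50.9% of other genes. Within each length class hosts were more frequent among genes with an open promoter, for example 25.4% against 17.3% from 30 to 100 kb. Of the sites 162 lay in more than 1 annotated gene.

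The counts per host depended on the annotated gene. Gm20388, a gene model of 4435 kb on chromosome 8, held 92 sites, 55 of which also lay in another gene, among them all 26 sites of Gse1 and all 9 of Zfpm1. Gse1 sites had replicate 1 values of 1.28 to 10 and replicate 2 values of 0.873 to 3.48, and 24 of the 26 held footprints in both libraries. Fgfr2, a fibroblast growth factor receptor gene annotated over 2961 kb, held 24 sites. Nfic, which encodes a transcription factor of the nuclear factor I family, held 12 sites in 59.5 kb, but most were low, with medians of 0.505 and 0.388 and highest values of 3.83 and 2.20. Pde4d, a cAMP phosphodiesterase gene, held 12 sites (medians 1.18 and 1.10), 6 with a GATA match. Mid1 on the X chromosome held 11 with medians of 4.19 and 2.44, none with a GATA match, and Nav2 held 11 with medians of 1.29 and 0.735, 6 with one. Maml3, a Notch coactivator gene, and Sh3pxd2a held 10 each, with 3 GATA matches in either. Itpr2, a calcium channel gene of the endoplasmic reticulum, held 9 sites, 4 with a GATA match. Megf11, Pitpnc1, Rere and Zfpm1 also held 9. Per length of eligible intron, Nfic had 28.6 sites per 100 kb, Zfpm1 19.1 and Gse1 7.89, against 0.521 over all protein-coding genes.

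Genes of red cell formation held sites more often than protein-coding genes in general. On 5 erythroid lists together, 51 of 102 genes held 121 sites, against the 13.2% of all protein-coding genes given above. On 9 lists for other cell types 22 of 105 genes held 35 sites, and none of 12 housekeeping genes held one. Per 100 kb of eligible intron the erythroid lists had 3.14 sites, the other lists 0.499 and all protein-coding genes 0.521. Median gene lengths were 25.2 kb and 26.4 kb for the erythroid and other lists and 17.4 kb for all protein-coding genes. Among all genes of 10 to 30 kb 8.63% held a site, and among those of 30 to 100 kb 22.9%. Their densities were 0.890 and 0.756 sites per 100 kb. The erythroid-list sites had median values of 2.55 and 1.71, and their median percentile, by mean rank of value among the 4478 sites, was 80.2, against 55.3 for the other lists and 49.6 for all. A GATA match was present at 60 of the 121 (49.6%), against 31.9% of all sites and 7 of 35 on the other lists. The share was 60.6%, 54.8% and 56.3% on the transcription factor, membrane, and heme and iron lists. It was 26.3% and 27.3% on the signaling and enucleation lists. The 7 were 4 of 10 stem and progenitor sites and 3 of 7 neuronal sites. The median log2 ratio of the erythroid-list sites, replicate 2 over replicate 1, was -0.62. The lists were chosen with earlier results of these data known, so the counts are a description.

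**Figure D5:**
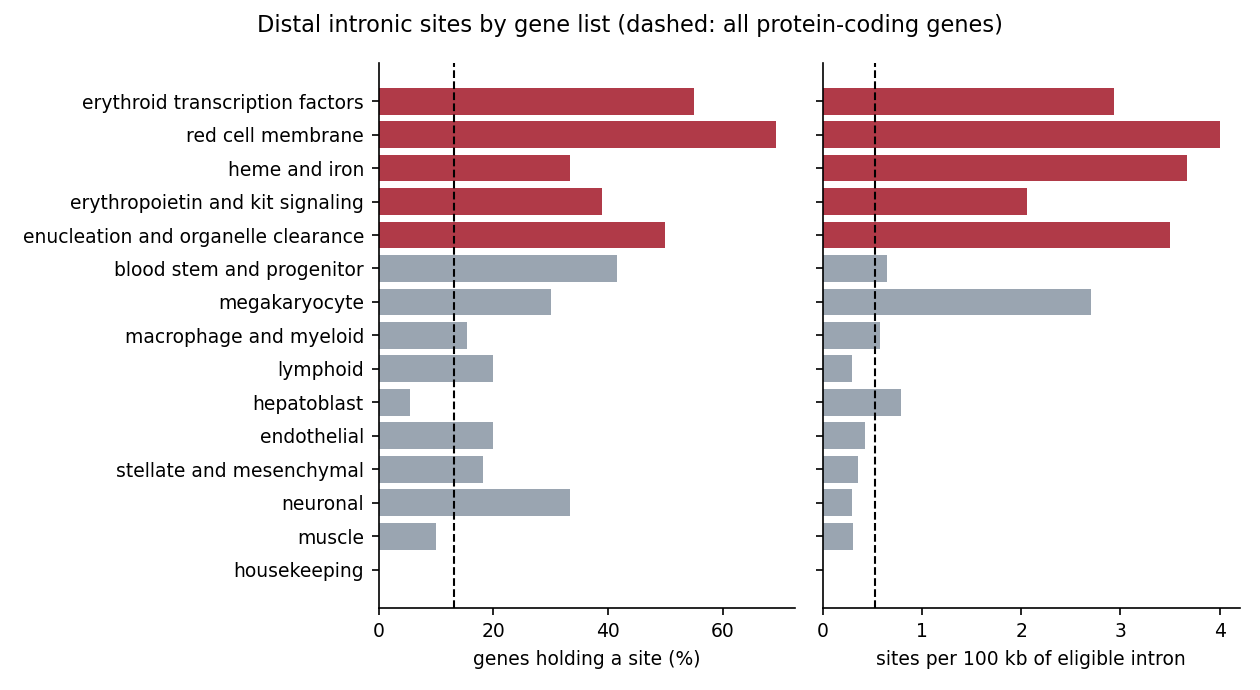
Left, percentage of the genes of each of 15 lists that held a distal intronic site; right, sites per 100 kb of eligible intron of the list's genes. Erythroid lists are red, other lists grey and dashed lines mark all protein-coding genes (13.2% and 0.521). The red cell membrane list reaches 69.2% and 4.0 sites per 100 kb, and the megakaryocyte list 2.70 sites per 100 kb, the highest of the grey bars.

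Among erythroid transcription factors 11 of 20 genes held 33 sites, with medians of 3.11 and 2.04, and 20 of the 33 held a GATA match. Zfpm1 encodes FOG1, the cofactor of GATA1, and held 9 sites with replicate 1 values of 2.19 to 11.1 and replicate 2 values of 1.89 to 5.16. All 9 had footprints in both libraries and 7 held a GATA match; 2 of the 9 overlapped each other and had the same replicate 2 value, 2.66. Its promoter had values of 26.8 and 12.2. E2f2, a regulator of the erythroid cell cycle, held 3 sites, with 7.52 and 3.11, 6.15 and 2.68, and 6.03 and 2.54 in replicates 1 and 2. All 3 were more than 2-fold lower in replicate 2. Cbfa2t3, which encodes the ETO2 corepressor, held 2 sites, with 4.39 and 2.54 and with 3.33 and 1.62, both with a GATA-E-box. Ikzf1, which encodes Ikaros, held 3 sites, with 4.53 and 2.37 at the highest, and Foxo3, a forkhead factor active in red cell maturation, held 5, with 4.62 and 2.09 at the highest.

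Outside the rule for named genes, and chosen after their values were seen, 2 regulators are added. Gata1 held 1 site, 3471 bases from a start, with 3.73 and 1.64 and a GATA and a KLF match. Gfi1b, a repressor required for red cells and platelets, held 1 with 4.0 and 2.11. Klf1, Tal1, Lmo2, Ldb1, Nfe2, Mafk, Mafg, Zbtb7a and Runx1t1 held none. Klf1 is 3.36 kb long and had promoter values of 3.70 and 2.23, and Tal1 is 15.3 kb long with 7.50 and 4.82.

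The red cell membrane list had the highest share of hosts, with 18 of 26 genes and 42 sites, medians of 2.50 and 1.59, and a GATA match at 23 of the 42. Ank1, which encodes ankyrin 1, the anchor of the spectrin skeleton, held 5 sites. Its highest had values of 6.97 and 4.21, and one with a GATA-E-box had 6.22 and 2.02. Rhd, a Rh blood group gene, held the site shown above, with 5.78 and 3.11 and footprints in both libraries (6 and 3). Slc43a1, an amino acid transporter gene, held 2 sites, with 5.50 and 3.01 and with 1.58 and 1.26. Dmtn, which encodes dematin, an actin-bundling protein of the membrane skeleton, held 1 site with 6.04 and 2.65. It had 3 footprints in replicate 1 and 0 in replicate 2. Cd47, the signal that protects cells from phagocytosis, held 3 sites, with 5.37 and 2.69 at the highest, where a GATA-E-box was found. A neighbouring Cd47 site with neither a GATA nor a GATA-E-box match had 1.5 in replicate 1 and the same replicate 2 value, 2.69.

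Sites of the heme and iron list lay in 8 of 24 genes and numbered 16, with medians of 2.19 and 1.53 and a GATA match at 9. Alad encodes the second enzyme of heme synthesis and held 4 sites, close together in intron 1. Its highest had 15.1 and 5.20, a log2 ratio of -1.54, and the other 3 had 2.46 and 2.12, 2.56 and 1.64, and 1.91 and 2.22. Abcb10, a mitochondrial transporter gene of red cell precursors, held 1 site with 4.30 and 2.25. Glrx5, needed for iron-sulfur clusters, held 1 with 3.99 and 2.23, and Fam210b, a mitochondrial gene of heme synthesis, held 3 with 3.43 and 1.90 at the highest. Steap3, the ferrireductase of the transferrin cycle, held 4 with 2.86 and 1.72 at the highest. The highest sites of Glrx5, Fam210b and Steap3 each held a GATA-E-box. Alas2, which encodes the first enzyme of heme synthesis in red cells, was added after its values were seen. It held 1 site in intron 1, a stretch it shares with the gene Apex2, with 2.98 and 0.846, a log2 ratio of -1.82, and a GATA-E-box and a KLF match. Its promoter had a peak in replicate 1 only, with 0.752.

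In erythropoietin and kit signaling 7 of 18 genes held 19 sites, with medians of 1.54 and 1.25 and a GATA match at 5, a share of 26.3% against 31.9% of all sites. Igf1r, the insulin-like growth factor 1 receptor gene, held 8 sites. One stood apart with 13.6 and 6.94, while the other 7 lay between 0.579 and 2.97 in replicate 1. Jak2, the kinase of the erythropoietin receptor, held 1 site with 5.78 and 3.72 and a CTCF match. Bcl2l1, which encodes the survival factor BCL-xL, held 5 sites in intron 2, with 4.65 and 2.51 at the highest and 1.18 and 0.901 at the lowest. Gab1, a signaling adaptor gene, held 1 site with 3.70 and 2.41, and Stat5b, a target of the kinase, 1 with 2.29 and 1.73. Epor, which encodes the erythropoietin receptor, held none, with promoter values of 15.3 and 6.39.

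Enucleation and organelle clearance genes held 11 sites in 7 of 14 genes, with medians of 2.67 and 1.84. A GATA match was present at 3 of the 11, a share of 27.3% against 31.9% of all sites. Mxi1, a MYC antagonist gene, held 3 sites, of which the one 1155 bases from a start had 16.3 and 6.63 and the other 2 had 1.47 and 1.87, and 1.31 and 1.01. Trim58, a ubiquitin ligase that acts on dynein during enucleation, held 2 sites, with 5.52 and 2.59 and with 4.79 and 1.93. Ulk1, the kinase that starts autophagy, held 1 with 4.87 and 3.80. Ube2o, which remodels the proteome of reticulocytes, held 2 with 3.36 and 1.68 and with 2.02 and 1.72. Tmcc2 held 1 with 2.67 and 1.84.

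On the lists for other cell types 22 of 105 genes (21%) held a site, also above the 13.2% of all protein-coding genes. The stem and progenitor list, with 41.7%, was above the heme and iron list (33.3%) and the erythropoietin and kit signaling list (38.9%). The neuronal list had 33.3%. However, median gene lengths were 95.2 kb (stem and progenitor) and 64.7 kb (neuronal), against 18.3 kb (heme and iron) and 41.4 kb (signaling). By density the order was reversed, with 0.648 and 0.295 sites per 100 kb of eligible intron against 3.67 and 2.06. On the stem and progenitor list 5 of 12 genes held 10 sites. Runx1, a regulator of blood stem cells and megakaryocytes, held 5, with 7.07 and 4.16 at the highest. Flt3 held 1 with 1.80 and 1.19, and Myb 2 with 1.64 and 1.18 at the highest. On the megakaryocyte list 3 of 10 genes held 6 sites, with Vwf, the von Willebrand factor gene, at 6.70 and 3.81, Selp at 1.56 and 0.984, and Itgb3 at 1.11 and 0.776. On the macrophage and myeloid list Spi1, which encodes PU.1, held 1 site with 4.04 and 2.74 and Mrc1 1 with 1.31 and 0.984, among 13 genes. Of 10 lymphoid genes, Pax5 held 1 site with 0.900 and 1.28 and Ebf1 1 with 0.591 and 0.374. Of 18 hepatoblast genes only Hnf4a, a master regulator of hepatocytes, held sites, 2 of them, with 2.08 and 1.39 and with 1.64 and 1.34. Endothelial Flt1 held 1 site with 1.27 and 1.25, and Pecam1 2 with 0.924 and 0.832 at the highest.

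The mesenchymal genes Pdgfrb and Reln held 1 site each, with 1.91 and 1.69, and 1.60 and 1.01. On the neuronal list 4 of 12 genes held 7 sites, led by Gfap with 2.70 and 1.86, Syt1 with 1.96 and 1.15 and Grin1 with 1.38 and 1.46. Of 10 muscle genes Ryr1 held 1 site, with 3.07 and 1.73 and a CTCF match. A CTCF match was also present at the sites of Selp, Mrc1, Pax5, Flt1, Pdgfrb and Grin1 and at the lower Hnf4a site. On the hepatoblast list the median gene length was 10.4 kb and the density 0.789 sites per 100 kb. This was above the 0.521 of all protein-coding genes. It was below the 0.896 of genes under 10 kb and the 0.890 of genes of 10 to 30 kb. Both sites of the list lay in Hnf4a, which had no promoter peak in either library.

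The highest sites of all were of mixed kinds. By mean rank the first was a site in intron 1 of Il31ra, an interleukin receptor gene, with 32.5 and 48.2, followed by a site in Gphn, which encodes gephyrin, with 19.0 and 30.7. Next came Ccnd3, the cyclin D3 gene that acts in red cell precursors, with 18.6 and 9.27, and Mid1 with 19.0 and 7.90. Nr1d1, a clock repressor gene, had 20.5 and 6.85, Mnt, a MAX-binding repressor gene, had 17.4 and 8.51, and Jarid2, a Polycomb cofactor gene, had 15.4 and 28.4. A second Mid1 site nearby had 17.0 and the same replicate 2 value, 7.90, Itpkb, an inositol kinase gene, had 17.7 and 6.71, and the highest site in Gm20388 had 19.1 and 6.24. Only those of Il31ra, Gphn and Jarid2 among these 10 were higher in replicate 2, and 5 of the 100 best ranked sites were, against 757 of all 4478 (16.9%). None of these 10 lay in a gene of the erythroid lists. Of the 30 best ranked sites 4 did, in Mxi1, Igf1r, Alad and Zfpm1, and of all 4478 sites 121 did.

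Sequence that recurs in the genome was measured after these values were seen, as the share of 32-base words of the central window found elsewhere in the reference. It was 57.4% at the Il31ra site, 65.1% at the Gphn site, 29.0% at the Jarid2 site and 100% at both Mid1 sites, and 0% at the other 5 of the 10. A site in Filip1l with 11.1 and 36.7, also chosen after its values were seen, had 89.9%. Over all sites 4034 (90.1%) held no recurring word and 69 (1.54%) had more than 50% of their words recurring. Of these 69, 34.8% were higher in replicate 2, against 16.6% of the others. Without them the GATA share was 32.1% of 4409 sites and the number of erythroid-list genes with a site was 51. The part of recurring sequence in the values of single sites was not tested.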

How the data were processed

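For each library 2 tables carried peaks, 1 the footprints and 1 the cut rates, each made by the authors from that library's own filtered alignments to mm10 and not pooled, per the descriptions deposited with the files. The peak value is a signal deposited by the authors; the sources used here state neither its normalisation nor the caller, version or cut-off. Values were whole multiples of a step of 0.0123 in replicate 1 and 0.0139 in replicate 2, but the depth is not known, so no counting error can be given for a single value. The deposited false discovery rate of the cut rate (a q-value) served only as a description, and the footprint score deposited by the authors is a constant, 0.01, so only positions were used.

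Peaks were placed with GENCODE release M21, and sequence and masking came from the RefSeq GRCm38 genome, the build of the files. Shares carry exact (Clopper-Pearson) 95% intervals. Motifs were consensus patterns searched on both strands in the central 200 bases, and flanks were windows 1000 bases away in the same gene that met no peak, exon or start region. All 219 list genes were matched by symbol. Sites, lists and motifs were chosen with earlier results of these data known. Named genes were, per list, up to 3 (up to 5 for erythroid lists) whose sites ranked best by mean rank over both libraries, the 10 hosts with most sites and the 10 best ranked sites. Python 3.11.15, pandas 2.3.3, scipy 1.17.1 and pysam 0.24.0 were used, and counting and overlap steps were tested on simulated data. Alternatives to each choice are given at the end; leaving out recurring sequence was chosen after seeing the data.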

Additional observations from a re-analysis of the deposited data

How the results depend on the processing

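With the shorter peak lists there were 2116 sites in 1626 genes, with a mean of the library medians of 1.74 and footprints at 93.8%. In the upper 50% of sites by mean rank there were 2239 in 1560 genes, with 1.83, footprints at 94.8% and GATA at 34.9%; both choices keep higher peaks by construction. The share of sites with GATA was 29.8% with an overlap of at least 50% of both peaks, 28.2% with replicate 2 peaks as the base, 19.7% in the central 100 bases and 21.4% for AGATAA alone; the last 2 search less sequence or fewer patterns. With either replicate left out, which drops the overlap requirement, there were 5697 to 9061 sites in 3417 to 4724 genes, with medians of 0.887 to 0.924, footprints at 68.8% to 75.6% and GATA at 25.8% to 29.3%. The number of erythroid-list genes with a site was 40 to 61 over all alternatives run, against 51. The other values stayed within 1.5 times the reported count, 1 SD or the 95% interval, also over 2500 bases from starts, with only the exons of protein-coding genes left out and without recurring sequence. For the share of peaks found in both libraries the limit was the SD of 20.7. That SD follows from unequal peak totals and is too wide to test stability. The share was 50.8% with an overlap of at least 50% of both peaks, against 64.1% as reported. It was 66.5% with the shorter lists and 63.4% over 2500 bases from starts. It has no value without a replicate or, by construction, for replicate 2 as base or the upper 50%.

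No paired analysis was possible because both libraries belong to 1 group. With 2 libraries the spread between them is poorly known, and with unknown depth an absent site cannot be told apart from one below the authors' threshold.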
